A study of Mus musculus with 2 samples.

Results

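The 5 miRNA genes Mir21a, Mir214, Mir199a-1, Mir199a-2 and Mir199b are known from fibroblasts and other mesenchymal cells, and were chosen by name from the 2202 miRNA genes counted in mouse heart. All 5 were in the tables, and 4 had enough reads for a comparison of the libraries. Short RNAs were sequenced from total RNA of whole hearts of male B6CASTF1/J mice, F1 hybrids of the B6 and CAST strains, at an age of 36 days by the age label (a free-text field gives the unit as months). The 2 libraries form 1 group as biological replicates 1 and 2 from differently numbered males with 1 shared donor record, so that n = 2 refers to samples and may not mean unrelated animals. No treatment, mutant, second tissue or second age was labelled, and the design implies a description of levels and of the spread between replicates.

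A miRNA is cut from a hairpin in a longer primary transcript, and 1 or both arms of the hairpin become mature miRNAs of about the length of the reads. Bases 2 to 8 of the mature miRNA, the seed, pair with target mRNAs and lower their output. In heart, miR-21 is known from fibroblasts, where it represses Spry1, an inhibitor of growth factor signalling, and it is also made by leukocytes and other cells. The miR-199a and miR-214 pair comes from the noncoding RNA Dnm3os, which is active in mesenchyme, and miR-214 is also known to lower the sodium-calcium exchanger of heart muscle cells. The label "fibroblast" could not be checked here, since whole tissue was sequenced and the tables hold no mRNA markers of fibroblasts. In whole tissue, fewer cells of a type and less RNA per cell cannot be told apart.

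The mature sequences of the members are shown first, since they decide which reads could be assigned to a single gene. Sequences are from RefSeq on GRCm38.p6, written 5′ to 3′ with the seed in capitals, and all 5 members were matched by symbol. Mir21a and Mir214 have arms of their own:
miR-21a-5p: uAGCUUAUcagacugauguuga
miR-21a-3p: cAACAGCAgucgaugggcuguc
miR-214-5p: uGCCUGUCuacacuugcugugc
miR-214-3p: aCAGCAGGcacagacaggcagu
For the 5′ arm of Mir199b the RefSeq table lists no mature miRNA, so none is printed. The Mir199 loci make these mature RNAs from several places:
miR-199a-5p (Mir199a-1 and Mir199a-2): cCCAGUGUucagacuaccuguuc
miR-199a-3p and miR-199b-3p (all 3 loci): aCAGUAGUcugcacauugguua
The members fall into 6 seeds. Each of the 4 arms of Mir21a and Mir214 occurred in 1 annotated hairpin, its own. In contrast, miR-199a-5p occurred in 2 hairpins and the 3p sequence in 3.

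Mir21a and Mir214 stand alone in sequence at the length of a mature miRNA, whereas the Mir199 hairpins do not. Of the 71 windows of 22 nt in the Mir21a hairpin and the 89 in that of Mir214, 0 occurred in another annotated miRNA hairpin. For Mir199a-1, 13 of 49 windows were shared with another Mir199 locus, for Mir199a-2 12 of 89, and for Mir199b 8 of 89. Over all 2202 miRNA genes, 1023 (46.5%) had such a shared window. The hairpins of the 3 Mir199 loci are printed with every base of a shared window in capitals, to show that the sharing lies on the mature arms:
Mir199a-1 (chr9:21496495-21496564, minus strand): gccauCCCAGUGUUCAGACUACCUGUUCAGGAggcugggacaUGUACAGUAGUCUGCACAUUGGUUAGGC
Mir199a-2 (chr1:162217814-162217923, plus strand): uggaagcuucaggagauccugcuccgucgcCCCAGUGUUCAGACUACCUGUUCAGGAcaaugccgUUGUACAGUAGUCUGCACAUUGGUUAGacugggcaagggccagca
Mir199b (chr2:32318460-32318569, plus strand): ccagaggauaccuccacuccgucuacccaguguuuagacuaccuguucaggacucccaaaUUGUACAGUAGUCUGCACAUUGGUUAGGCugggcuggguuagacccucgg
Shared windows covered 55 of 70 bases of Mir199a-1, 54 of 110 bases of Mir199a-2 and 29 of 110 bases of Mir199b. The 5′ arm of Mir199b differs from miR-199a-5p by 1 base, C10U, counted from 1 at the 5′ end of the miRNA, with the base of miR-199a-5p first. Because of that base, the longest run found in another hairpin was 18 nt, for runs that start in this arm and may continue past its end. A read of the whole 5′ arm of Mir199b therefore has 1 exact match among annotated hairpins, while reads of its 3′ arm have 3.

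**Figure D1:**
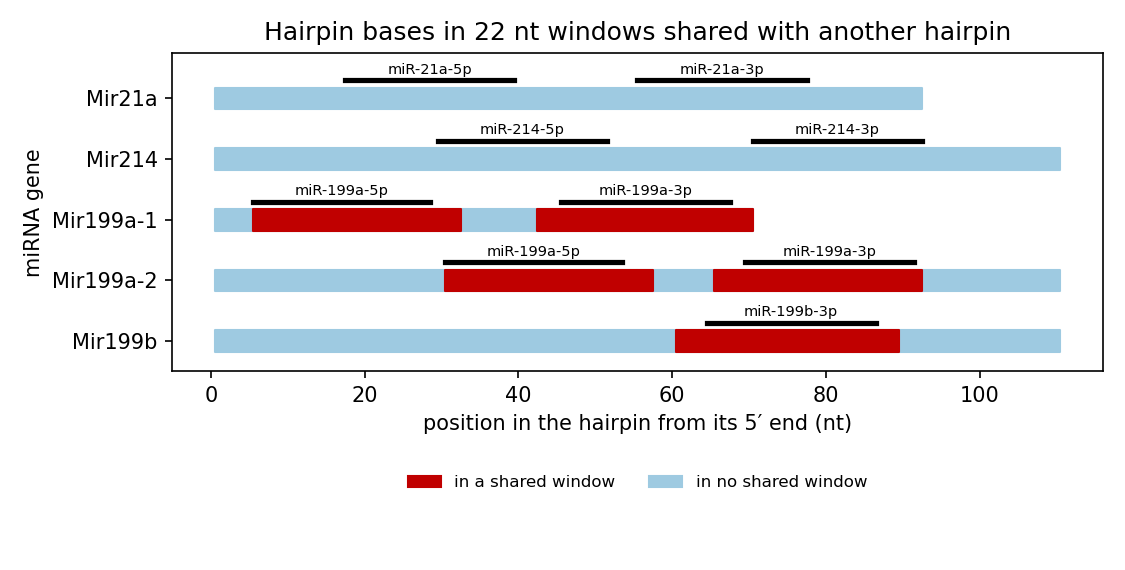
Each bar is 1 hairpin drawn from its 5′ end, with position in nt on the x axis and the 5 miRNA genes on the y axis. Red bases lie in a 22 nt window that also occurs in another annotated hairpin, and blue bases do not. Black lines mark the mature miRNAs listed in RefSeq, which has none for the 5′ arm of Mir199b. Red covers both arms of Mir199a-1 and Mir199a-2 and the 3′ arm of Mir199b, and no base of Mir21a or Mir214.

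The loci are placed differently in the genome (GRCm38, the mm10 assembly; annotation GENCODE M21). Mir21a (ENSMUSG00000065455.1, chr11:86584067-86584158, minus strand) lies within Vmp1, which encodes a membrane protein of autophagy, on the same strand. Its hairpin is inside exon 12 of 1 of 8 annotated Vmp1 transcripts, in the 3′ UTR. Mir214 (ENSMUSG00000065516.1, chr1:162223368-162223477) and Mir199a-2 (ENSMUSG00000070126.1) lie in Dnm3os, a noncoding RNA transcribed opposite to the dynamin gene Dnm3. Each hairpin is wholly inside exon 1 of 2 of the 6 annotated Dnm3os transcripts, and 5444 bases separate them. Part of the Mir214 hairpin also overlaps exon 4 of 1 other transcript, and part of the Mir199a-2 hairpin overlaps exon 1 of 3 others. Mir199a-1 (ENSMUSG00000065547.1) lies opposite to Dnm2 and Mir199b (ENSMUSG00000092807.1) opposite to Dnm1, both in introns on the other strand of dynamin genes. No other annotated miRNA gene overlapped any of the 5.

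Depth was similar in both libraries. Library 1 held 5479149 reads and library 2 held 4893073, and 1999362 and 1862526 of these fell in the sense direction on a single miRNA gene. Reads mapping to several places, 41.5% and 42.9% of all reads, were assigned to no gene. Levels below are counts per 1000000 assigned sense reads (CPM). A read spans a whole mature miRNA and both arms of a hairpin are summed. Intervals are exact Clopper-Pearson 95% intervals and cover counting error only, since PCR copies were not told apart.

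Together the 5 genes took 0.426% of assigned reads in library 1 (interval 0.417 to 0.435) and 0.734% in library 2 (0.722 to 0.747). The mean share was 0.580% ± 0.218 (SD, n = 2). Nearly all of this came from Mir21a and Mir214, which gave 99.7% of the reads of the 5 genes in library 1 and 99.9% in library 2. The 3 Mir199 loci held 44 reads over both libraries. Reads mapping to several places were assigned to no gene, so this split covers only reads placed on a single gene. At 10 CPM or more in both libraries, 2 of the 5 genes were detected by such reads. The share of all genes at that level was not counted.

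Mir21a had 3550 reads in library 1, or 1776 CPM (interval 1718 to 1835), and 11442 reads in library 2, or 6143 CPM (6032 to 6257). Library 2 was the high sample, and the intervals lie far apart. The mean was 3959 ± 3088 CPM (SD, n = 2), rank 32 of 2202 genes, and the SD was a large part of it. The rank was 49 in library 1 and 23 in library 2.

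Mir214 had the opposite order. It had 4941 reads in library 1, or 2471 CPM (interval 2403 to 2541), and 2217 reads in library 2, or 1190 CPM (1141 to 1241). Its mean was 1831 ± 906 CPM (SD, n = 2), rank 47, with rank 37 in library 1 and 61 in library 2.

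Which of these genes had more reads therefore differed between the libraries. Mir21a gave 0.718 reads for each read of Mir214 in library 1 (exact binomial 95% interval 0.688 to 0.750) and 5.16 in library 2 (4.93 to 5.40), a change of 7.18-fold that no scaling of the libraries can alter. The order was the same per base of hairpin. For Mir21a this was 19.3 CPM per base in library 1 and 66.8 in library 2, and for Mir214 22.5 and 10.8.

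Mir199a-2 had 17 reads in library 1, or 8.50 CPM (interval 4.95 to 13.6), and 6 reads in library 2, or 3.22 CPM (1.18 to 7.01). Mir199b had 8 reads, or 4.00 CPM (1.73 to 7.88), and 13 reads, or 6.98 CPM (3.72 to 11.9). The intervals of the libraries overlapped for both genes. Their means, 5.86 ± 3.73 and 5.49 ± 2.11 CPM (SD, n = 2), did not differ beyond their spread.

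Mir199a-1 had 0 reads in both libraries. A count of 0 allows up to 3 counts, which is 1.5 CPM in the first library and 1.61 CPM in the second, but only for reads from the part of the hairpin that no other locus shares. Both of its mature miRNAs occur at other loci, so these counts set no limit on miR-199a made there. The same holds for Mir199a-2, whose mature miRNAs also both occur at other loci. It holds in part for Mir199b, whose counts can miss reads of its shared 3′ arm.

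Within Dnm3os, counted reads were very unequal. For each read of Mir199a-2 there were 291 of Mir214 in library 1 (exact binomial 95% interval 181 to 499) and 370 in library 2 (169 to 1008), and the intervals overlap. Reads mapping to several places numbered 2273922 and 2098983, and how many of them were miR-199 sequences was not tested. The ratio describes reads placed on a single locus, not the miRNAs themselves.

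The other annotated genes of the miR-21 name were not detected. Mir21b and Mir21c each had 0 reads in both libraries, and neither hairpin shares a 22 nt window with another, so the limit of 1.5 and 1.61 CPM applies to both. They are printed because they differ from miR-21a-5p within the length of a read:
miR-21b: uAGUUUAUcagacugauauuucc
miR-21c: uAGCUUAUcagacugguacaa
The closest ungapped stretch to miR-21a-5p had 4 mismatches in the Mir21b hairpin and 6 in that of Mir21c. The seed of miR-21c is that of miR-21a-5p, and the seed of miR-21b is another. Outside the members, the seed of miR-214-3p was found in 1 miRNA of the RefSeq table, miR-761, whose gene had 0 reads in library 1 and 1 in library 2.

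**Figure D2:**
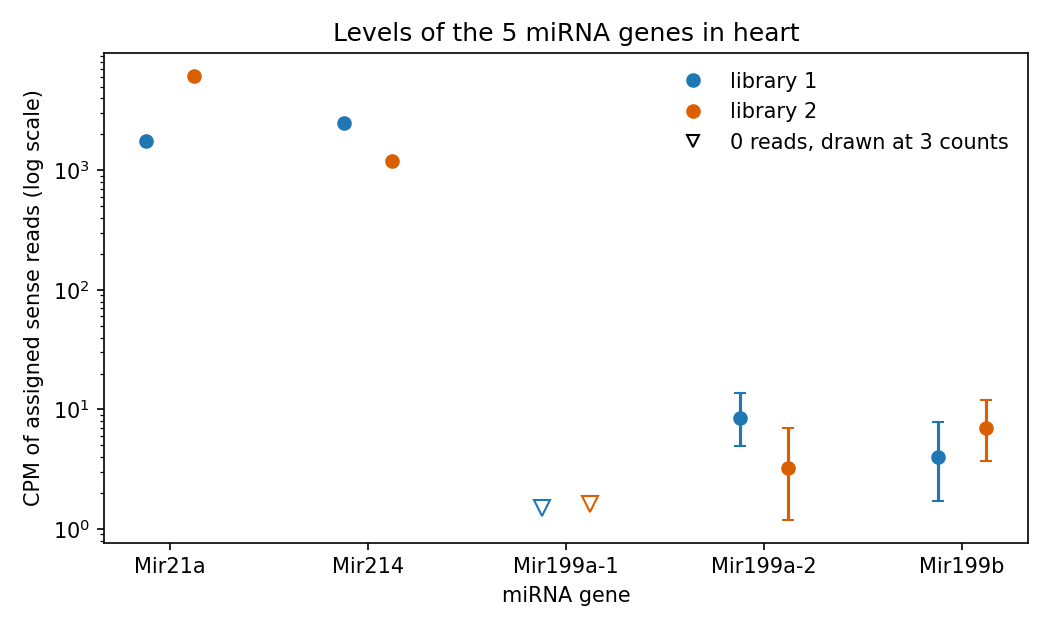
Levels of the 5 genes (x axis) in library 1 (blue) and library 2 (orange), in CPM of assigned sense reads on a log axis. Points are single libraries, bars are exact 95% counting intervals (smaller than the points for Mir21a and Mir214), and open triangles mark 0 reads, drawn at 3 counts. Mir21a is higher in library 2 and Mir214 in library 1, and the Mir199 loci lie under 10 CPM.

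By mean level, Mir21a and Mir214 stood among genes that cannot be put in order with 2 libraries. Directly above Mir21a were Mir29a (4470 ± 3.18 CPM, SD, n = 2), whose miRNA represses collagen mRNAs, and Mir140 (4001 ± 2986). Directly below were Mir744 (3946 ± 1159) and Mir155 (3341 ± 492), the last known from leukocytes. Each of these means lies within the SD of Mir21a. Mir214 followed Mir98 (1889 ± 305) and Mir221 (1881 ± 164) and preceded Mir92-1 (1803 ± 432) and Mir342 (1681 ± 206), all within its SD of 906 CPM.

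The libraries were then compared gene by gene, with an exact two-sided conditional binomial test of sense counts over the 344 genes with 10 or more reads summed. A gene was called when its Benjamini-Hochberg adjusted p was under 0.05 and its CPM differed by 2-fold or more. It compares 2 replicate libraries with counting error as the sole source of error, and no conditions. Of the 4 members tested, 2 were called, 1 in each direction, against 17.7% of all tested genes. Among genes with a mean level of at least 100 CPM the called share was 12.1%, and the members at that level, Mir21a and Mir214, were both called.

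Mir21a was 3.46-fold higher in library 2 (log2 ratio 1.79, adjusted p below 1e-300 in the exact conditional binomial test). This was the 3rd largest absolute log2 ratio among the 141 genes averaging at least 100 CPM, whose median was 0.34. Mir214 was 2.08-fold higher in library 1 (log2 ratio -1.05, adjusted p = 8.26e-192 in the exact conditional binomial test), the 15th largest. Neither Mir199a-2 (log2 ratio -1.33, adjusted p = 0.0671 in the exact conditional binomial test) nor Mir199b (0.77, adjusted p = 0.388) passed. These rested on 23 and 21 reads summed over the libraries.

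The call of Mir214 depended on the scaling. The median log2 ratio of tested genes was -0.19, and scaling with edgeR's TMM factors or with DESeq2 size factors moved every ratio up by 0.19. Mir214 then stood at -0.86 with either, under 2-fold, and Mir21a was the 1 member called, against 16.3% of all tested genes. Over all genes the split moved from 19 higher in library 2 and 42 higher in library 1 to 29 (8.43%) and 27 (7.85%) of the 344. Both genes kept their direction with each scaling.

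Counting error leaves out the spread between samples. When the spread between the libraries was estimated over all genes, as a biological coefficient of variation of 0.421, edgeR's negative binomial exact test called 0 members, against 2.33% of all tested genes. Its Benjamini-Hochberg adjusted p was 0.722 for Mir21a and 1 for Mir214. At an unadjusted p under 0.05 it held 1 of the 4 members tested, against 17 of all 344 tested genes. This test was added after the data were seen, and it takes the spread from the same libraries that it compares.

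**Figure D3:**
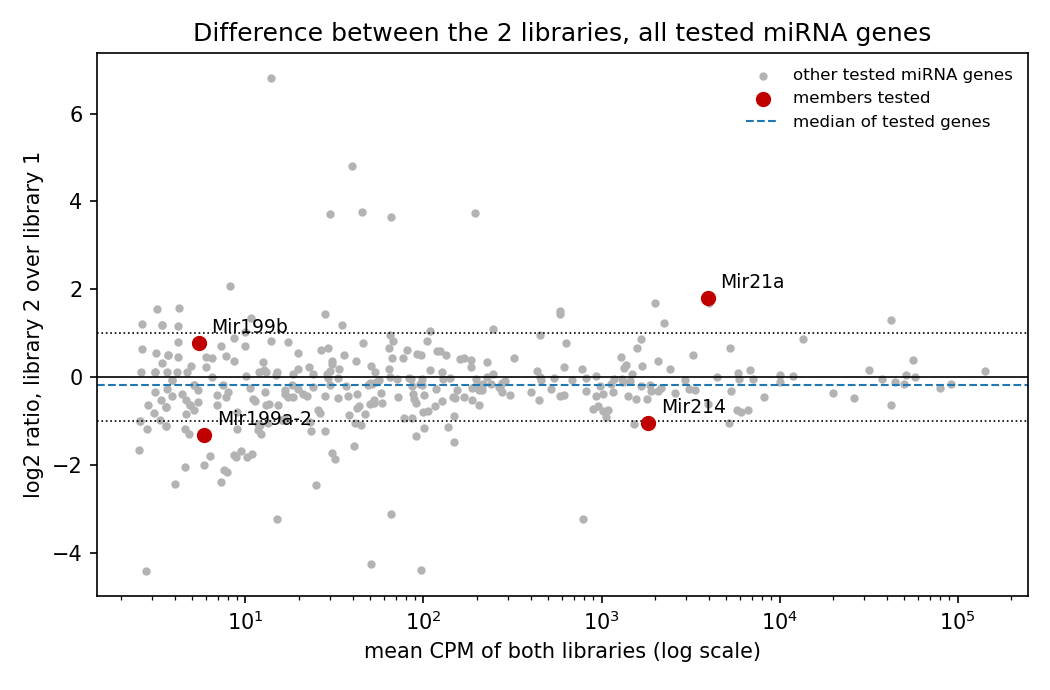
Each point is 1 of the 344 tested miRNA genes, with mean CPM on a log x axis and the log2 ratio of library 2 over library 1 on the y axis. Red points are the 4 members tested, dotted lines mark 2-fold and the dashed line the median of tested genes. Mir21a lies above the upper dotted line and Mir214 just beyond the lower one.

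Genes whose ratio lay nearest to that of a member, among those averaging at least 100 CPM, were taken as the nearest patterns over the 2 libraries. For Mir21a these were Mir140 (log2 ratio 1.69), Mir674 (1.69) and Mir31 (1.5). Mir140 nearly matched it in level too, with 1890 CPM in library 1 and 6113 CPM in library 2. For Mir214 they were Mir208a (-1.05), Mir127 (-1.08) and Mir130b (-1.14). Mir208a, the heart muscle miRNA of the alpha myosin gene, had 7004 CPM in library 1 and 3393 CPM in library 2.

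Markers of other heart cells were summed in each library beside these ratios. The cardiac muscle list (7 genes, 4 tested) summed to 8556 CPM in the first library and 6697 CPM in the second, mainly from Mir208a and Mir499. Mir499 was higher in library 2 (log2 ratio 1.23) and Mir208a higher in library 1. Mir208b (-0.55) and Mir1a-2 (-0.07, 115 and 102 reads) were not called. The genes not tested, Mir1a-1, Mir133a-1 and Mir133a-2, had at most 6 reads a library. Reads mapping to several places are missing from these sums, and how far this lowers them was not tested. With TMM scaling Mir208a, too, was no longer called. Of 2 endothelial markers 1 was tested, Mir126a, and the list summed to 48925 and 63819 CPM. The smooth muscle list, Mir143 and Mir145a, was nearly level at 39517 and 38697 CPM, with log2 ratios of -0.04 and 0.19.

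Leukocytes are another known source of miR-21. Of 6 leukocyte markers, 5 were matched by symbol and 0 were called, against 12.1% of genes at their level of at least 100 CPM. The matched markers summed to 6892 and 6777 CPM. They were Mir155 (log2 ratio -0.30), Mir342 (0.25), Mir150 (0.45), Mir142 (-0.41) and Mir223 (-0.17), against 1.79 for Mir21a. The unmatched symbol was Mir146a. A gene under the symbol Mir146 had 1834 and 2345 CPM (log2 ratio 0.35, not called). It is left out of the sum, and including it would raise library 2 more than library 1. The 3 erythroid markers, Mir486, Mir451a and Mir144, summed to 2452 and 1970 CPM, with 0 called against the same 12.1% (-0.04, -0.74 and -0.03). No matched marker of these lists was at 0 in both libraries. The 5 members summed to 4259 and 7344 CPM. The median log2 ratio of the 4 tested was -0.14, and its sign turned with TMM or DESeq2 scaling, at 0.05 with either. The part of any cell type in the ratios of Mir21a and Mir214 was not tested.

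Other miRNAs known from work on cardiac fibrosis were called in both directions. Of the 28 listed genes, 25 were tested, 4 were called higher in library 2 and 2 higher in library 1, against 5.52% and 12.2% of all tested genes. The median log2 ratio of the list was 0.19 against -0.19 for all tested genes. With TMM scaling the calls were 6 and 1, against 8.43% and 7.85% of all tested genes, and the medians were 0.38 and 0.00. Without the 5 members and without TMM scaling, 3 of 21 tested were called higher in library 2 and 1 higher in library 1, against the same 5.52% and 12.2%. The list was written with earlier results of these data known.

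Among the listed miRNAs that restrain matrix genes, the mir-29 family was mixed. Mir29a had 8933 and 8330 reads, a log2 ratio of 0.00. Mir29c had 312 and 623 reads and was higher in library 2 (1.10), while Mir29b-1 (0.37) and Mir29b-2 (0.36) were not called and stood at or under 34.4 CPM in each library. Mir30c-1 and Mir30c-2, whose miRNA is known to repress the matrix regulator Ctgf, had ratios of -0.01 and 0.01. Mir133a-1 and Mir133a-2 had 8 reads each over both libraries and were not tested. Sequence shared with other hairpins was not examined for the listed genes outside the members. Reads mapping to several places were assigned to no gene, so a low count of a listed gene sets no limit on its miRNA. Ratios of listed genes likewise cover only reads placed on a single gene.

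Of the remaining listed genes, those called higher in library 2 were Mir22 (log2 ratio 1.31, 24473 and 60488 CPM) and Mir26a-2 (3.73, 54 and 675 reads), and Mir433 was called higher in library 1 (-1.35, 260 and 95 reads). Mir24-1 (0.82) and Mir101a (0.94, under 100 CPM) were under 2-fold here and were called with TMM or DESeq2 scaling. Not called were Mir34a (0.51), Mir155, Mir130a (-0.36), Mir15b (0.19), Mir132 (0.22), Mir24-2 (-0.29), Mir154 (-0.04) and Mir101b (-0.05).

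**Figure D4:**
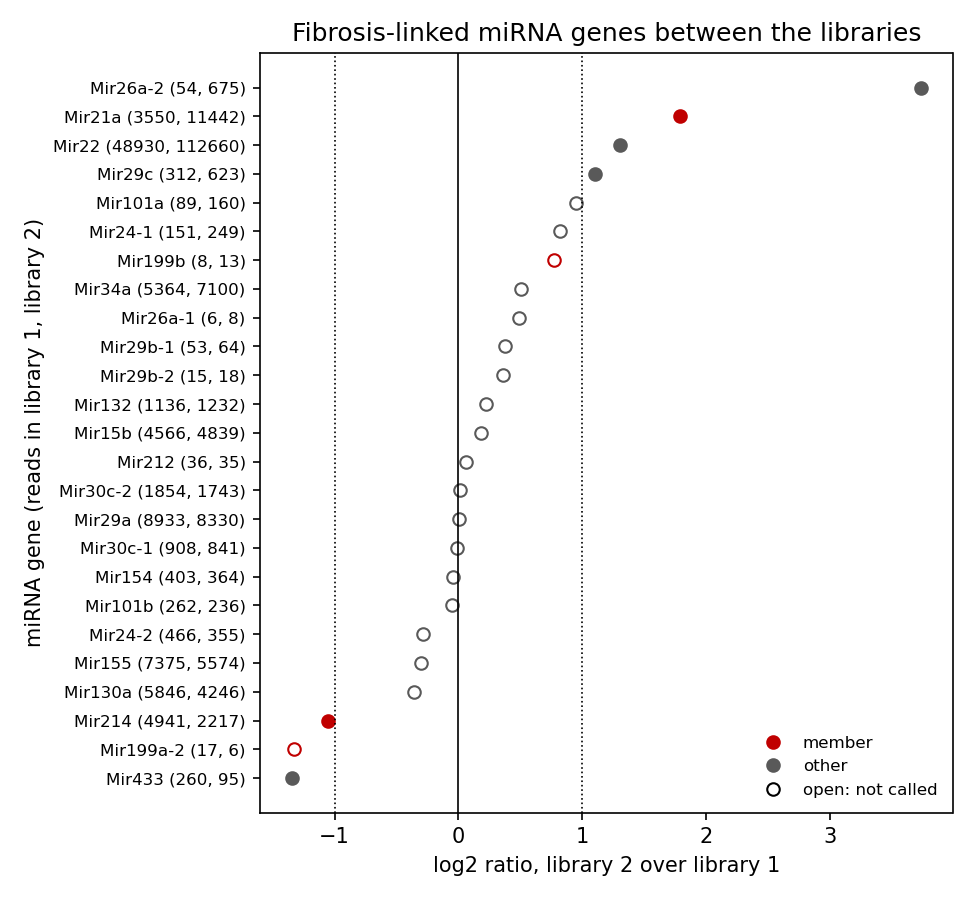
Log2 ratio of library 2 over library 1 (x axis) for the 25 tested genes of the fibrosis-linked list (y axis, with reads in library 1 and library 2). Red points are members, filled points were called and open points were not, and dotted lines mark 2-fold. Mir21a and Mir214 lie on opposite sides, and most listed genes lie between the dotted lines.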

How the data were processed

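Short RNAs of 2 mouse heart libraries were counted by the authors, and the deposited tables hold raw read counts per miRNA gene in 3 columns. The first ignores strand and leaves out reads that are then ambiguous between miRNA genes on opposite strands, so that such genes can stand at or near 0 there, and the others hold sense and antisense reads. Per the file deposited beside each table, the assembly was mm10 and the annotation M21. The aligner and counter were not given in the sources used here, and each column's strand was read from the values. Sense counts were used, and 4 status rows that name no gene were left out of totals. All 2202 gene identifiers matched GENCODE M21.

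CPM were computed over assigned sense reads. The libraries were compared with an exact conditional binomial test (SciPy 1.17.1), on genes with 10 or more reads summed, with Benjamini-Hochberg adjustment. Fold changes came from CPM, and log2 ratios had 0.5 added to each count. TMM factors came from edgeR 4.0.16 and size factors from DESeq2 1.42.0. The test was tested on simulated data with counting error as the sole source of error, which leaves out the spread between samples. The counts of the libraries differed beyond sampling noise (chi-square 92268 on 343 degrees of freedom).

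The members and lists were chosen with earlier results of these data known. Genes named are the members, Mir21b and Mir21c, listed genes averaging at least 100 CPM, and the nearest genes by level (2 on each side) and by ratio (3). Genes with a member's seed, listed genes under 100 CPM and Mir146 fall outside this rule. Sequence sharing was searched in annotated miRNA hairpins (exact matches) and not in the rest of the genome.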

Additional observations from a re-analysis of the deposited data

Results flagged for a closer look

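Reads that mapped to several places lie outside the counted genes and exceed the 3 counts used as the limit for a count of 0. They numbered 2273922 in library 1 and 2098983 in library 2, against 25 and 19 reads counted on the 3 Mir199 loci. They were not traced to a locus here. Antisense reads of the members, 1 for Mir21a in library 1 and 1 for Mir214 in library 2, were below that limit. Outlying samples and differences between groups could not be looked for with 2 libraries in 1 group.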

How the results depend on the processing

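The log2 ratio of each tested member kept its sign under every alternative run. Fold thresholds and minimum counts do not enter the ratio, and TMM or DESeq2 scaling moved every ratio by 0.19. The kept sign is therefore no measure of stability. Of 100 recomputed values, 83 kept their call, moved by no more than the SD between libraries or, for numbers of genes, stayed within 1.5-fold. Part of these could not have come out otherwise. Leaving out 1 of 2 libraries cannot move a mean by more than their SD, and Mir199a-1 had 0 reads throughout. The count of 83 is therefore no measure of how stable the results are. The number of members called fell from 2 to 1 with TMM scaling, with DESeq2 scaling and with all reads as the denominator (Mir214 at a log2 ratio of -0.99), because Mir214 dropped under 2-fold, and to 0 with the spread between libraries modelled. The other count alternatives (both strands, other pseudocounts, minimum counts and fold thresholds) left it at 2. With a minimum of 50 counts only 2 members were tested. Of these alternatives, pseudocounts do not enter the calls, and the lower fold thresholds could not remove a call. With TMM or DESeq2 scaling the split of all calls turned from 19 higher in library 2 and 42 higher in library 1 to 29 and 27. The medians of 3 lists changed sign. They went from -0.14 to 0.05 for the members tested, from -0.17 to 0.02 for the matched leukocyte markers and from -0.04 to 0.15 for erythroid markers. Over all 344 tested genes the calls went from 61 (17.7%) to 105 at 1.5-fold and 186 (54.1%) with no fold threshold. They went to 57 with all reads as the denominator and 8 with the spread modelled (17 at an unadjusted p under 0.05). With both strands together 52 of 319 tested genes were called, with a minimum of 50 counts 41 of 249, and with no minimum 61 of 652. With all reads as the denominator, the 5 members took 0.217% in place of 0.580%. Leaving out a library gave shares of 0.426% to 0.734%, and a ratio of Mir214 to Mir199a-2 reads of 291 to 370 around 311 with both summed. At a threshold of 1 CPM 4 members were detected in both libraries, in place of 2 at 10 CPM. Windows of 18 and 20 nt left the number of members with shared sequence at 3. No paired analysis was possible because the libraries form 1 group. The Mir199 values rest on 6 to 17 reads a library where any were counted, and how far depth or shared sequence sets these numbers was not tested.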
